A study of Mus musculus with 2 samples.

Results

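The 8 genes described here encode the creatine kinases and adenine nucleotide enzymes and carriers that link ATP use to ATP supply in skeletal muscle: Ckm, Ckmt2 and Ckb (creatine kinases), Slc6a8 (the creatine transporter of the cell membrane), Ak1 (adenylate kinase), Ampd1 and Ampd3 (AMP deaminases) and Slc25a4 (the adenine nucleotide translocase of muscle mitochondria). They are a list of named genes, 8 of the 35163 gene rows of the deposited table, and no threshold on their levels was applied. They were read in single myofibers from a foot muscle rich in fast fibres, the FDB (flexor digitorum brevis), of 1 untreated C57BL/6J mouse over 3 months of age, the number and strain given by the deposited description. The paper's methods name adult male mice of the C57BL/6J and DBA2 backgrounds, without saying which gave these cells. The fibres were freed with collagenase and sorted on a large particle sorter through gates that took long intact and shorter rod-shaped fibres, or were cut from the muscle as fragments, and all were sequenced by mcSCRB-seq, in which each captured RNA molecule is counted once through a unique molecular identifier (UMI). Of 763 cells, the 171 with more than 5000 genes and less than 20% of counts from genes named mt- were used. Each was assigned to a fibre class by the largest of Myh1, Myh2, Myh4, Myh7 and Myh8, which gave 117 fast 2X (Myh1), 51 fast 2A (Myh2), 2 slow (Myh7) and 1 fast 2B (Myh4) cell, with Myh8 leading in none. The paper counted more cells as slow, by raised Myh7 and not only by leading Myh7. The fast 2A class used here may therefore hold some cells that the paper counts as slow.

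In resting and working muscle, creatine kinase moves the phosphate group between ATP and creatine, with a cytosolic enzyme near the contractile filaments and a mitochondrial enzyme between the mitochondrial membranes. Adenylate kinase recovers ATP from ADP and leaves AMP, which AMP deaminase turns into IMP, while the adenine nucleotide translocase exchanges ADP for ATP across the inner mitochondrial membrane. Fast glycolytic fibres are known for high cytosolic creatine kinase and AMP deaminase activity, and oxidative fibres for mitochondrial creatine kinase.

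The 3 creatine kinase genes are shown first by the 250 bases before their annotated start, because they serve 1 reaction from 3 loci with different levels in these fibres. The sequences are RefSeq's for GRCm38.p6, and 6 of the 8 genes were matched in the promoter table used here. Capitals mark 3 motifs searched on both strands: the E-box CANNTG, read by myogenic factors, a MEF2-like motif and the TATA box TATAAA. The MEF2-like motif was searched loosely as CTA, any 4 bases, TAG, and is called the MEF2 motif below. The ERR half-site AAGGTCA was searched as well and is in none of the 3 windows. Of all 32851 windows of this length before the starts in that promoter table, 66.2% hold an E-box and 3.20% the MEF2 motif. The TATA box is in 12.4% and the ERR half-site in 4.08%, so an E-box in a window is common. Ckm lies on the plus strand, chr7:19410844-19411093, Ckb on the minus strand, chr12:111672339-111672588, and Ckmt2 on the minus strand, chr13:91876886-91877135. The Ckm window precedes a RefSeq start that lies inside the GENCODE span of the gene, which begins at 19404776.
Ckm: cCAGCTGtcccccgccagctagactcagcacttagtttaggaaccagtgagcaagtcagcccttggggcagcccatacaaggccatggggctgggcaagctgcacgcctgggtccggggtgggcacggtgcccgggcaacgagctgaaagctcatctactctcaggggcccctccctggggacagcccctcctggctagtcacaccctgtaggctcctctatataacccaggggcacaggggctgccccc
Ckb: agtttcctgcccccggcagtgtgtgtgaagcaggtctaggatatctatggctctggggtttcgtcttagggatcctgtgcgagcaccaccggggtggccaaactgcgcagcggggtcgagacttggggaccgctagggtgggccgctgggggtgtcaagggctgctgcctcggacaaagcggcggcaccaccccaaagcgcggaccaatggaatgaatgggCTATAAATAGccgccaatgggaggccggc
Ckmt2: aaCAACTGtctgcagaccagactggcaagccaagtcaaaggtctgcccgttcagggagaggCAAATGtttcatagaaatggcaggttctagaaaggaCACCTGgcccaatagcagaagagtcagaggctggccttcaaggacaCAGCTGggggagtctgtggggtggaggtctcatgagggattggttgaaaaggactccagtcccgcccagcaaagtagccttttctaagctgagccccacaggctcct
The Ckm window holds 1 E-box, at its far end, and the Ckmt2 window holds 4. The Ckb window holds no E-box and a single stretch that matches the MEF2 motif and, inside it, the TATA box. These are matches of letters, and no binding was measured.

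The kept cells had a median of 239581 UMI counts, from 28827 to 1542996, and their gene rows held a median of 96.9% of the deposited UMI total. Their median share of mt- counts was 5.96%, against 48.0% in the 592 cells left out. The cells came from 8 plates on 2 lanes, no full cell barcode was shared between cells, and the table labels 168 as whole and 3 as fragments, a label that does not separate the sorter's gates by length. The fast 2X cells had a median of 255726 counts and 5.01% mt- counts, and the fast 2A cells 206510 counts and 6.96%. All 5 markers fixed for mature myofibres (Ttn, Acta1, Neb, Tcap and Mylpf) had counts, with a median summed level per cell of 118245 CPM (counts scaled to a total of 1000000) in fast 2X and 128445 CPM in fast 2A. As all cells came from 1 mouse, they are not replicates: no p-value is given, and every 95% limit covers counting error only.

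Slc25a4 and Ckm were among the most abundant transcripts of these fibres, ranked 28 and 29 of all genes. Summed over the 171 cells, Slc25a4 reached 4247 CPM (95% Poisson limits 4229 to 4265) and Ckm 4152 CPM (limits 4134 to 4170). Ak1 followed at 1156 CPM, Ampd1 at 442 CPM and Ckmt2 at 217 CPM. Slc6a8 reached 61.4 CPM (limits 59.3 to 63.6), Ampd3 13.0 CPM (limits 12.0 to 14.0) and Ckb 2.10 CPM (limits 1.72 to 2.53). Slc25a4, Ckm, Ak1 and Ampd1 had a count in all 171 cells, Ckmt2 in 169, Slc6a8 in 166, Ampd3 in 111 and Ckb in 40.

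Levels of different genes were set side by side per kilobase of the longest coding transcript in GENCODE M21, although a UMI method counts molecules and not fragments. On that scale the order was Slc25a4 (2206 CPM per kb), Ckm (1514), Ak1 (554), Ampd1 (152), Ckmt2 (146), Slc6a8 (15.5), Ampd3 (3.17) and Ckb (1.43). The first places depended on the transcript: with the shorter Ckm transcript of 1235 bases in place of the 2742-base one, Ckm stood at 3362 CPM per kb and led. Ampd1 and Ckmt2, neighbours in this order, lay within the same range of values, and with the 2342-base Ampd1 transcript Ampd1 stood at 189 CPM per kb.

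**Figure D1:**
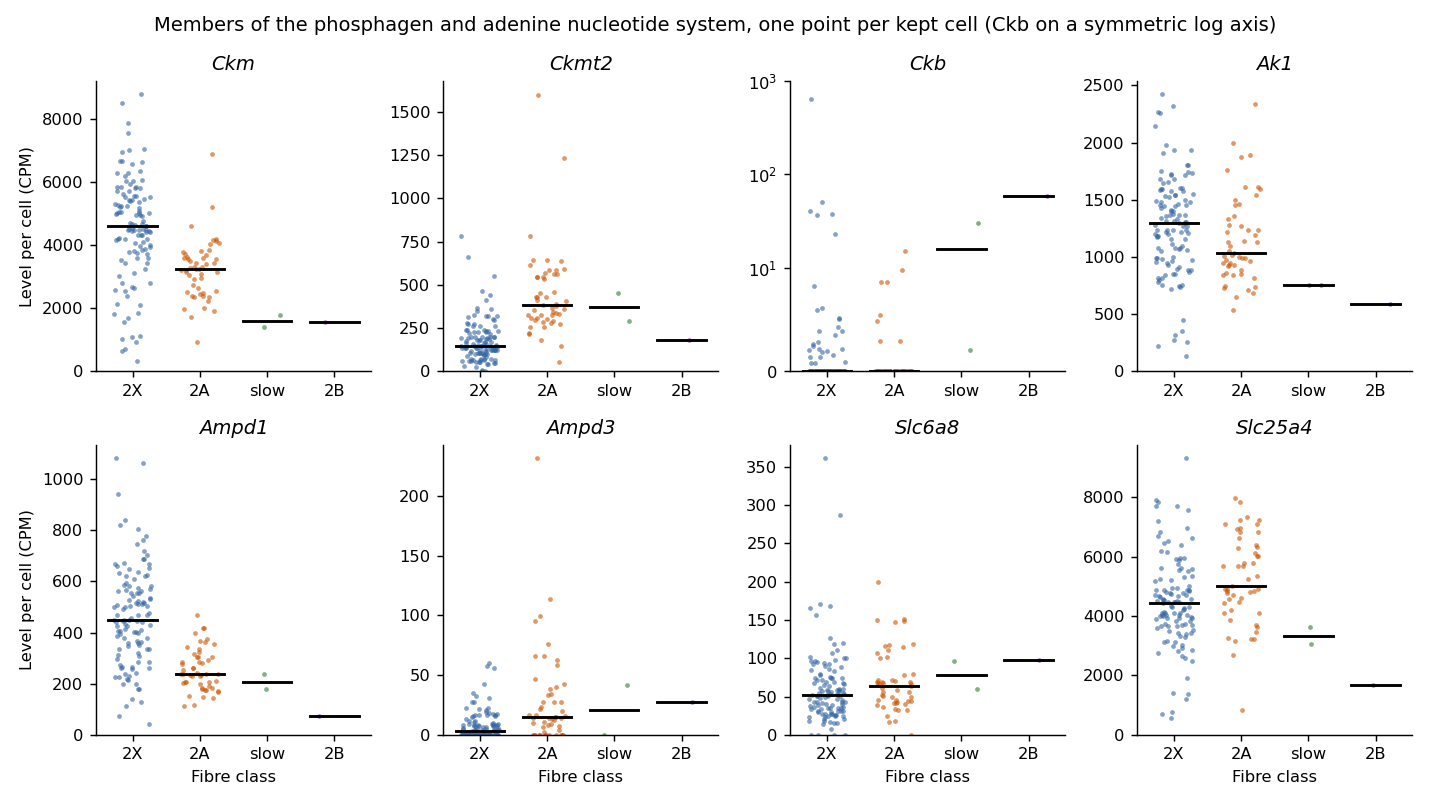
Level of each gene in each of the 171 kept cells, in CPM (vertical axis), by fibre class (117 fast 2X, 51 fast 2A, 2 slow, 1 fast 2B cell); lines are class medians, and Ckb has a symmetric log axis. Ckm and Ampd1 sit higher in fast 2X cells, Ckmt2 and Ampd3 higher in fast 2A cells, and Ckb is at 0 in most cells.

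The comparison of fast 2A with fast 2X asked whether these enzymes follow the fibre type within the fast range. Ckmt2 and Ampd3 were higher in fast 2A cells and Ampd1 and, just past the 1.5-fold line, Ckm were lower. Of the 7 members with at least 500 counts, 2 were at least 1.5-fold higher in fast 2A, where 2.57% of 8744 genes were, and 2 were at least 1.5-fold lower, where 7.43% were. The 5 Myh genes that define the classes were left out of these shares. The median log2 ratio of the 7 members was 0.18, against -0.09 for all 8744 genes. The other 3 members, Ak1, Slc6a8 and Slc25a4, lay within 1.5-fold, and Ckb, with 109 counts, was under the minimum.

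Ckm, the cytosolic creatine kinase of muscle, ranged from 324 to 8787 CPM with a median of 4598 CPM in the 117 fast 2X cells. In the 51 fast 2A cells it ranged from 923 to 6884 CPM with a median of 3231 CPM. The ranges overlapped widely, yet 48 of the 51 fast 2A cells lay below the fast 2X median and 40 below the lower quartile of fast 2X. The summed levels were 3022 CPM in fast 2A and 4552 CPM in fast 2X, a log2 ratio of -0.59 (95% limits -0.61 to -0.57), or 1.51-fold lower. Ckm was lower in fast 2A in each of the 6 plates that held 5 or more cells per class, by log2 ratios from -0.96 to -0.36. A factor from edgeR's TMM in place of the class totals gave -0.48, short of 1.5-fold, and without the single cells richest in Ckb and Ampd3 it was -0.57. In the lowest of 3 ranges of count totals the ratio was -0.07.

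Ckmt2, the sarcomeric mitochondrial creatine kinase, had the opposite pattern. Its level ranged from 0 to 783 CPM with a median of 146 CPM in fast 2X cells, and from 55.4 to 1600 CPM with a median of 386 CPM in fast 2A cells. Of the 51 fast 2A cells, 50 lay above the fast 2X median and 46 above its upper quartile, and 2 lay above the highest fast 2X cell. The summed level was 422 CPM in fast 2A against 152 CPM in fast 2X, which is 2.77-fold higher (log2 ratio 1.47, limits 1.42 to 1.53). The 6 plates had a median log2 ratio of 1.47 and a highest of 1.91, and all were past 1.5-fold. A ratio as high or higher was found for 0.377% of the 8744 genes.

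Because Ckm and Ckmt2 moved in opposite directions, the make-up of the creatine kinase counts differed between the classes, in a measure that needs no total. Of the counts of Ckm, Ckmt2, Ckb and Ckmt1 (the widely expressed mitochondrial form), Ckmt2 made up 3.23% in fast 2X (Clopper-Pearson limits 3.15 to 3.31) and 12.2% in fast 2A (limits 11.9 to 12.5). Per cell, the Ckmt2 share had a median of 3.24% in fast 2X cells, ranging from 0% to 15.7%, and of 10.4% in fast 2A cells, ranging from 2.08% to 33.3%. In 50 of 51 fast 2A cells the share was above the upper quartile of the fast 2X cells, and in 12 it was above their maximum. Ckmt1 made up 0.0721% of the fast 2X counts and 0.102% of the fast 2A counts.

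Ckb, the creatine kinase of brain and smooth muscle, was close to absent from most fibres. Its 109 counts came from 40 cells, and 25 of them (22.9%) from 1 fast 2X cell and 15 (13.8%) from the fast 2B cell. The cell with the most Ckb held 39394 counts in all, 635 CPM of Ckb and 711 CPM of Ckm. In this cell the 6 smooth muscle and pericyte markers summed to 10738 CPM, where the fast 2X median was 25.6 CPM, the 7 endothelial markers to 1650 CPM against 127 CPM, and the 5 fibroadipogenic markers to 2843 CPM against 18.8 CPM. Its mature myofibre markers summed to 24192 CPM, the lowest of the fast 2X cells. The part of these markers in the Ckb level was not tested. Without the 2 cells Ckb stood at 1.34 CPM, with at most 8 counts in any cell.
The summed levels of Ckb were 2.07 CPM in fast 2X (limits 1.64 to 2.57) and 0.756 CPM in fast 2A (limits 0.346 to 1.43), from 81 and 9 counts, a log2 ratio of -1.45 (limits -2.63 to -0.46) that became -0.85 without the cells with the most Ckb and Ampd3. After every cell was thinned to 28827 counts, 5 of 117 fast 2X cells (4.27%, limits 1.40 to 9.69) and 1 of 51 fast 2A cells (1.96%, limits 0.0496 to 10.4) had a count, against 29 and 8 before, and these limits overlapped. In addition, 15.7% of the 66-base stretches of the Ckb transcript are shared with the processed pseudogene Gm12892, and how such reads were assigned is not known here.

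Slc6a8, which brings creatine into the fibre, differed little between the classes. It had a median of 51.6 CPM in fast 2X cells, from 0 to 361 CPM, and of 63.9 CPM in fast 2A cells, from 0 to 199 CPM. The summed levels of 66.8 CPM in fast 2A and 59.1 CPM in fast 2X gave a log2 ratio of 0.18 (limits 0.06 to 0.29). The plates ranged from -0.27 to 0.81 and 4 of 6 were above 0, so the classes did not differ beyond the spread between plates. The creatine synthesis genes were read beside it. Gamt, which makes the last step to creatine, was 2.08-fold lower in fast 2A, at 30.4 against 63.3 CPM (log2 ratio -1.06, limits -1.22 to -0.90), and Gatm had 108 counts in all.

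Ak1, the cytosolic adenylate kinase of muscle, was at similar levels in both classes. It ranged from 133 to 2424 CPM in fast 2X cells with a median of 1294 CPM, and from 535 to 2335 CPM in fast 2A cells with a median of 1034 CPM. The summed log2 ratio was -0.23 (limits -0.26 to -0.20), and the 6 plates ranged from -0.71 to -0.003, which is below 0 in each. In the lowest of 3 ranges of count totals it was 0.17. Of all adenylate kinase counts, Ak1 made up 88.6% in fast 2X and 88.2% in fast 2A. Ak3, a mitochondrial form, made up 2.86% in fast 2X and 3.23% in fast 2A. Ak5 was at 17.8 CPM in fast 2X and 12.5 CPM in fast 2A and Ak7 at 9.52 and 12.6 CPM, while Ak6 had a log2 ratio of -0.33, all within 1.5-fold.

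Ampd1, the AMP deaminase of skeletal muscle, had the lowest ratio of the 7 members with at least 500 counts. It ranged from 41.5 to 1083 CPM with a median of 450 CPM in fast 2X cells, and from 114 to 468 CPM with a median of 238 CPM in fast 2A cells. The upper end of fast 2A lay near the fast 2X median: 1 of the 51 fast 2A cells was above that median, none was above the upper quartile, and 42 were below the lower quartile. Its summed level was 255 CPM in fast 2A and 505 CPM in fast 2X, 1.98-fold lower (log2 ratio -0.99, limits -1.04 to -0.93). The plates ranged from -1.18 to -0.54, below 0 in all 6 and past 1.5-fold in 5.

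Ampd3, the AMP deaminase first known from red blood cells, had the highest ratio of the members from few counts. In fast 2X cells it ranged from 0 to 59.9 CPM with a median of 3.12 CPM, and in fast 2A cells from 0 to 231 CPM with a median of 14.6 CPM. No count was found in 47 of 117 fast 2X and 12 of 51 fast 2A cells, so the classes overlapped at the low end, while 8 fast 2A cells lay above the highest fast 2X cell. The summed levels were 29.4 CPM in fast 2A and 7.58 CPM in fast 2X, 3.88-fold higher (log2 ratio 1.96, limits 1.73 to 2.18), and 0.183% of the 8744 genes had a ratio as high. Plate ratios ran from 1.39 to 2.51. The fast 2A cell with the most counts held 55 of 674, and after thinning to 28827 counts 45.1% of fast 2A cells (limits 31.1 to 59.7) and 16.2% of fast 2X cells (limits 10.1 to 24.2) had a count, against 76.5% and 59.8% before. The 8 markers of blood and immune cells, which include haemoglobin genes, summed to a median of 10.9 CPM in fast 2A and 15.3 CPM in fast 2X, and were lower in fast 2A by a log2 ratio of -0.80.

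Among the AMP deaminase counts, Ampd3 took 1.47% in fast 2X (limits 1.31 to 1.65) and 10.3% in fast 2A (limits 9.26 to 11.3). Per cell its share had a median of 0.599% in fast 2X and 4.84% in fast 2A, and reached 12.0% and 38.6%. In 36 of 51 fast 2A cells it was above the upper quartile of fast 2X and in 14 above the fast 2X maximum. Ampd2, the form of liver and other tissues, took 0.629% in fast 2X and 0.908% in fast 2A, so Ampd1 remained the main form in both classes at 97.9% and 88.8%.

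**Figure D2:**
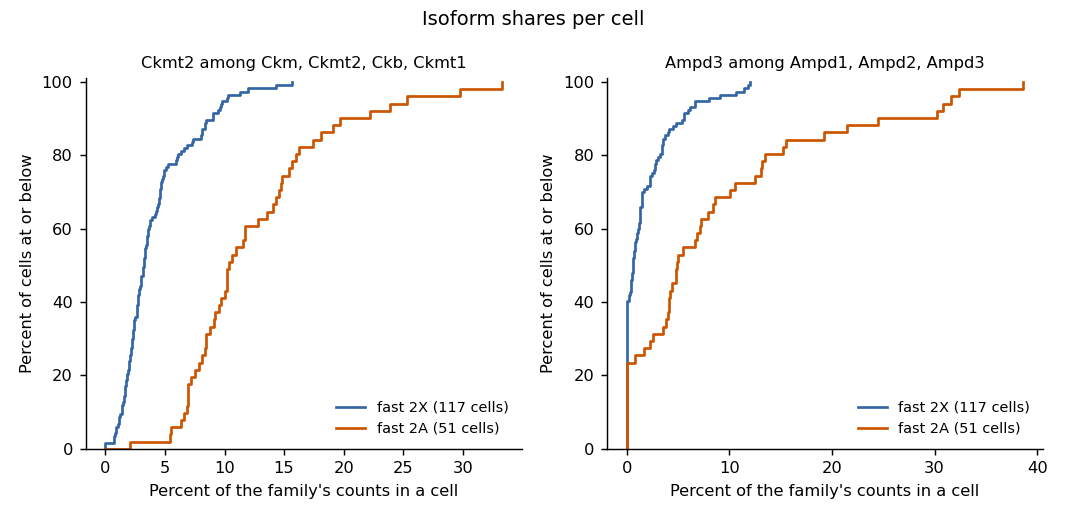
Cumulative percent of cells (vertical axis) against the percent of a family's counts in a cell (horizontal axis) that came from Ckmt2 (left) or Ampd3 (right), for 117 fast 2X and 51 fast 2A cells. The fast 2A curves lie to the right, with medians of 10.4% against 3.24% for Ckmt2 and 4.84% against 0.599% for Ampd3.

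Slc25a4, which carries ADP into and ATP out of mitochondria, was high in all fibres. It ranged from 548 to 9326 CPM with a median of 4436 CPM in fast 2X cells, and from 849 to 7978 CPM with a median of 5004 CPM in fast 2A cells. The summed levels of 4877 CPM in fast 2A and 4083 CPM in fast 2X gave a log2 ratio of 0.26 (limits 0.24 to 0.27). The plates ran from -0.06 to 0.62 with a median of 0.08, and 5 of 6 were above 0. The difference in summed levels was not larger than the spread between plates. Of the 51 fast 2A cells, 37 lay above the fast 2X median and 25 above its upper quartile. Slc25a4 made up 99.5% of the translocase counts in fast 2X and 99.6% in fast 2A, with Slc25a5, the translocase of many other tissues, at 0.491% and 0.430%. Slc25a3, the phosphate carrier of the same membrane, was at 401 CPM in fast 2X and 482 CPM in fast 2A, a log2 ratio of 0.27.

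**Figure D3:**
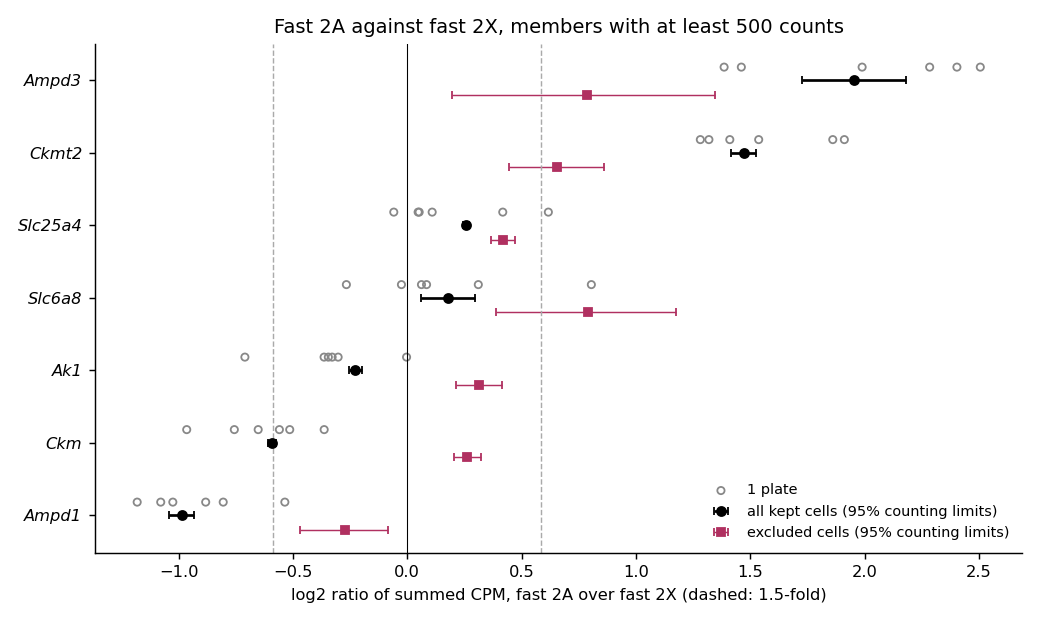
Log2 ratio of summed CPM, fast 2A over fast 2X (horizontal axis), for the 7 members with at least 500 counts; filled circles are all kept cells and squares the excluded cells, with 95% counting limits, and open circles are single plates (6, each with 5 or more cells per class). Ckmt2 and Ampd3 lie right of the 1.5-fold line and Ampd1 left of 0 in every plate, while the excluded cells lie to the right of the kept cells for Ckm, Ak1, Ampd1, Slc6a8 and Slc25a4 and to the left for Ckmt2 and Ampd3.

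A further 39 genes of creatine and purine nucleotide metabolism were counted as one list. All were in the table and 24 had at least 500 counts. None was at least 1.5-fold higher in fast 2A, 1 (Gamt) was lower, and 23 lay within 1.5-fold, with log2 ratios from -1.06 to 0.40 and a median of -0.08. These shares of 24 stand against 2.57% higher and 7.43% lower over all genes. Adssl1, the muscle adenylosuccinate synthase that returns IMP towards AMP, was at 651 CPM in fast 2A and 799 CPM in fast 2X, a log2 ratio of -0.30, and made up 98.0% and 98.4% of the counts of Adssl1 and Adss. The next step of that cycle, Adsl, was at 62.8 and 68.8 CPM, and Adk, which phosphorylates adenosine, at 147 and 125 CPM. The voltage-dependent anion channels of the outer mitochondrial membrane lay close to 0, at log2 ratios of 0.03 for Vdac1, -0.07 for Vdac2 and -0.12 for Vdac3.

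**Figure D4:**
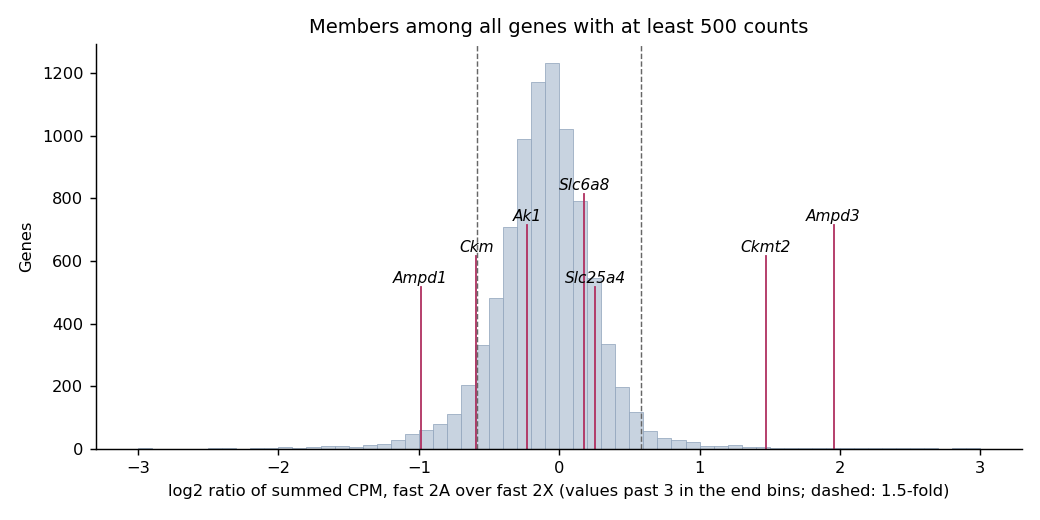
Number of genes (vertical axis) by log2 ratio of summed CPM, fast 2A over fast 2X (horizontal axis), for 8744 genes with at least 500 counts; red lines mark the 7 members counted and dashed lines 1.5-fold. Ampd3 and Ckmt2 lie in the thin right tail, Ampd1 in the left tail, Ckm on the line, and Ak1, Slc6a8 and Slc25a4 in the body of the distribution.

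Over the fast 2X and fast 2A cells together, the levels were also read along the share of Myh2 in the counts of Myh1 and Myh2. The classes rest on the same genes, so the bins repeat much of the class comparison. Inside fast 2X and fast 2A the Spearman correlation with this share was -0.39 and -0.41 for Ckm and 0.41 and 0.38 for Ckmt2. It was -0.55 and -0.20 for Ampd1 and -0.006 and 0.08 for Ampd3. In 5 bins of 20 percentage points, holding 48, 59, 16, 29 and 16 cells from low to high Myh2, the median Ckm level per cell was 5010, 4203, 4171, 3394 and 2390 CPM. Median Ampd1 was 542, 399, 294, 263 and 221 CPM in the same bins. Both fell from the first bin to the last. Median Ckmt2 rose along the bins, at 123, 167, 296, 377 and 488 CPM. Ampd3 was flat and then higher, with medians of 3.56, 2.47, 3.57, 14.4 and 16.1 CPM. The highest bin held the lowest Ak1 median, 957 CPM, while Slc25a4 was highest in the fourth bin, at 5767 CPM against 4261 CPM in the first and 4644 CPM in the last. The third and the last bin hold 16 cells each and are less certain than the others. The median count total was 330043 in the first bin and 153911 in the last, and its part in the levels was not tested.

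**Figure D5:**
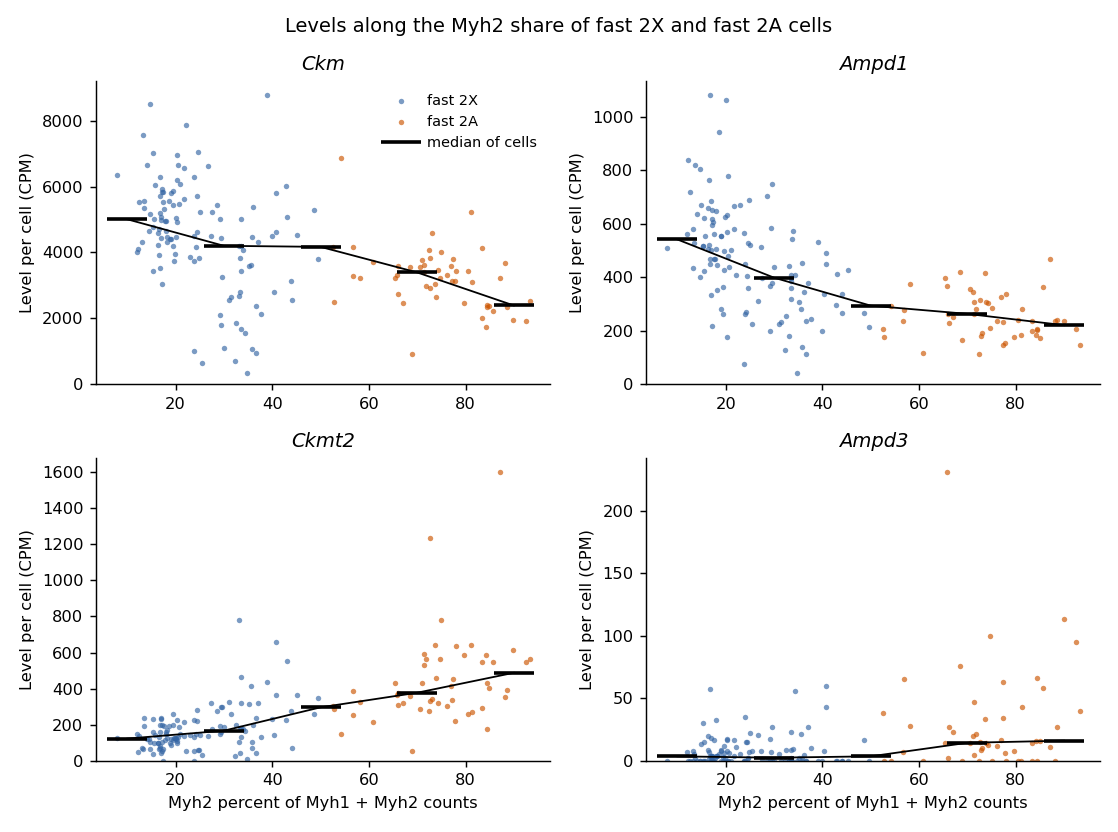
Level per cell in CPM (vertical axis) against the percent of Myh2 in Myh1 plus Myh2 counts (horizontal axis) for fast 2X and fast 2A cells, with the median of each 20-point bin as a black bar. Medians of Ckm and Ampd1 fall from 5010 to 2390 CPM and from 542 to 221 CPM, Ckmt2 rises from 123 to 488 CPM, and Ampd3 rises only in the upper bins.

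Inside the fast 2X class, Ckmt2 was higher and Ampd1 and Ckm were lower in the cells with more Myh2, within 1.5-fold. The 69 fast 2X cells with at least 20% Myh2 had 186 CPM of Ckmt2 against 125 CPM in the 48 cells below 20%, a log2 ratio of 0.57 (limits 0.50 to 0.65), and 429 against 565 CPM of Ampd1, a log2 ratio of -0.40 (limits -0.44 to -0.36). Ckm was at 4248 against 4793 CPM (log2 ratio -0.17, limits -0.19 to -0.16), Ak1 at 1204 CPM in both, and Ampd3 at 8.21 against 7.09 CPM (limits of the log2 ratio -0.13 to 0.55). Ckb was at 3.64 against 0.823 CPM (log2 ratio 2.15, limits 1.37 to 2.99), and the cell with 25 of its counts was among those with more Myh2. The cells with more Myh2 also had fewer counts, a median of 176742 against 330043, and a median of 6.45% against 4.31% mt- counts. The part of these in the ratios was not tested.

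The 3 cells of other classes are single observations. Slow signal was not confined to them: the 5 slow-fibre markers summed to 638 to 18917 CPM in fast 2A cells. Inside fast 2A, the Spearman correlation with these markers was -0.40 for Ckm, -0.34 for Ampd1, 0.29 for Ckmt2 and 0.30 for Ampd3. The part of slow signal in the fast 2A levels was not tested. The slow cells had 1416 and 1769 CPM of Ckm, below the lower quartile of both fast classes, and 178 and 238 CPM of Ampd1. Their Ckmt2 was 453 and 288 CPM, inside the range of fast 2A, and their Slc25a4 was 3624 and 3051 CPM. The fast 2B cell had 1552 CPM of Ckm, 179 CPM of Ckmt2, 73.9 CPM of Ampd1, 1677 CPM of Slc25a4 and 58.4 CPM of Ckb. Its Myh4 share was 53.5%, its Schwann cell and axon markers summed to 864 CPM and its fibroadipogenic markers to 2089 CPM, so it is not a clean reading of a 2B fibre. The part of those markers in its low enzyme levels was not tested.

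Across the 171 cells, Ckm and Ak1 went together (Spearman 0.69), as did Ak1 and Slc25a4 (0.61) and Ckm and Ampd1 (0.56). Ckmt2 went with Slc25a4 (0.47) and weakly against Ckm (-0.25, with 0.05 inside fast 2X and -0.08 inside fast 2A). Inside the 117 fast 2X cells the first of these was 0.70, the second 0.66, and Ckmt2 with Slc25a4 0.51, while Ckm with Ampd1 was 0.34. Inside the 51 fast 2A cells Ckm with Ak1 was 0.52 and Ak1 with Slc25a4 was 0.72. Ckm with Ampd1 was weaker there, at 0.19, and so was Ckmt2 with Slc25a4, at 0.13. Over the 171 cells, Slc25a4 was lower in cells with more counts (Spearman with the count total -0.33). Ckm was lower in cells with more Schwann cell and axon markers (-0.41) and fibroadipogenic markers (-0.37), again over the 171 cells. These values describe cells that share 1 mouse, and each cell's levels share 1 count total.

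The genes most alike to each member were sought over the 168 fast 2X and fast 2A cells, among 4142 genes with a count in at least 90% of kept cells. For Ckm these were Pygm (Spearman 0.82), Pvalb (0.81) and Gm5524 (0.81), and for Ampd1 they were Mss51 (0.74), Casq1 (0.73) and Actn3 (0.72). Pygm is muscle glycogen phosphorylase, Pvalb the calcium buffer parvalbumin, Casq1 the calcium store of fast fibres and Actn3 the fast-fibre alpha-actinin. Ckmt2 was most like Ldhb (0.76), Coq8a (0.76) and Actn2 (0.75), with Ldhb the lactate dehydrogenase subunit of oxidative tissue and Coq8a needed for coenzyme Q. Ak1 was most like the glycolytic genes Pkm (0.77), Pfkm (0.77) and Eno3 (0.75). Slc25a4 was most like Acta1 (0.85), the actin of skeletal muscle, and Atp5b (0.82), a subunit of ATP synthase. For Ampd3 the values were lower, with Ankrd2 (0.48), Acadl (0.46) and Ankrd33b (0.41), and lower still for Slc6a8 with Art1 (0.36), Card14 (0.35) and Pdk4 (0.34). Ckb, at 0 in most cells, reached 0.34 with Frmd4a, 0.32 with Msra and 0.31 with Gm28905, which in counts this sparse is no finding.
Some of these likenesses were weaker within fast 2X alone, where Ckmt2 with Ldhb was 0.54 and Ampd1 with Mss51 0.58. Others changed little: Ak1 with Pfkm was 0.79 and Slc25a4 with Acta1 0.85 within fast 2X.

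The cells left out by the quality filters came from the same mouse and are not a replicate set. The paper takes such cells to be probably of poor quality or sheared, with RNA lost. It places nearly all of its cut fragments among them. Of the 592, the 501 with at least 20 Myh counts were classed by the same rule, which gave 420 fast 2X and 66 fast 2A cells with median totals of 19565 and 20067.5 counts. Their median mt- shares were 52.7% and 52.0%. On the full totals Ckmt2 was again higher in fast 2A, at 118 against 75.1 CPM (log2 ratio 0.66, limits 0.45 to 0.86), and so was Ampd3, at 16.6 against 9.63 CPM (log2 ratio 0.79, limits 0.19 to 1.34). Ampd1 was again lower, at 125 against 151 CPM, but by a log2 ratio of -0.27 (limits -0.47 to -0.09), short of 1.5-fold. Ckm did not follow: it was at 1367 CPM in fast 2A and 1139 CPM in fast 2X, a log2 ratio of 0.26 (limits 0.20 to 0.32), and Ak1 was also above 0, at 0.31 (limits 0.22 to 0.41). Slc6a8 was at 34.2 against 19.8 CPM (log2 ratio 0.79, limits 0.39 to 1.18). With mt- counts left out of the totals, no member with at least 500 counts in the kept cells was past 1.5-fold here. The log2 ratio was 0.42 for Ckmt2, 0.55 for Ampd3 and for Slc6a8, -0.51 for Ampd1, 0.07 for Ak1 and 0.02 for Ckm. Ckb, under that minimum, had 1 count in these fast 2A cells and 37 in the fast 2X cells.

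Against the excluded cells, 6 of the 7 members counted were at least 1.5-fold higher in the kept cells, as were 67.5% of 9765 genes, and none was 1.5-fold lower, as 5.57% of genes were. The filter itself sets the mt- share of the kept cells, so all nuclear genes have more room in them: the median log2 ratio of all genes was 0.97 and that of the 7 members 1.51. With the mt- genes left out of both totals the median of all genes was -0.02, and Ckm kept a log2 ratio of 0.79, Ampd1 0.59, Slc25a4 0.55, Slc6a8 0.53, Ak1 0.52 and Ckmt2 0.43. Ampd3 then stood at -0.67 and Ckb at -1.24.

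Some reads could belong to neighbours. Ckm overlaps the antisense gene A930016O22Rik, which had 359 counts against 215588 for Ckm, and 9.76% of the 66-base stretches of Ckm transcripts are found in it on the other strand. Ampd3 overlaps Rnf141 on the opposite strand, which had 388 counts against 674 for Ampd3, and 5.14% of the 66-base stretches of Ampd3 transcripts are found in transcripts of other genes read on the opposite strand. Ckm spans 19404776 to 19422841 on chromosome 7, Ckmt2 91853387 to 91876885 on chromosome 13, Ampd1 103074014 to 103099720 on chromosome 3, Ampd3 110768206 to 110812405 on chromosome 7 and Slc25a4 46206797 to 46211284 on chromosome 8, in GRCm38. Ak1, Slc6a8 and Slc25a4 overlap no other annotated gene, and their 66-base stretches are found in no other annotated transcript.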

How the data were processed

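The series holds 1 group, FDB myofibers of 1 mouse by the deposited description, in 2 samples that are sequencing lanes. Reads were mapped by the authors to GRCm38 and collapsed to UMIs with the zUMIs pipeline. The submitters' processing notes also list STAR 2.5.4b, featureCounts and Cell Ranger 3.1.0. The deposited unit is the UMI count per gene, handled as an estimated count because the table also holds percentages in its description rows; all gene values were whole. Counts were summed per fibre class and divided by the class total as CPM, with exact Poisson limits, exact conditional binomial limits for ratios and Clopper-Pearson limits for shares, all at 95%. "Higher" or "lower" in a count means at least 1.5-fold, over genes with at least 500 counts. The minimum that a plate needed was 5 cells of each class. Doublets were not called. TMM factors came from edgeR 4.0.16 in R 4.3.3. Other steps used Python 3.11.15 and scipy. Ratios and limits were tried on simulated class sums with counting error only, so spread between cells or plates was not covered. Members and gene lists were chosen with earlier results of these data known. Named genes were the 8 members, list genes at least 1.5-fold apart or of the members' families, and the 3 genes most alike to each member, of which some are not reported here; Adsl, Adk, Slc25a3 and Vdac1 to Vdac3 were named after their values were seen. Some rows counted in the deposited totals were not analysed here. No test across cells was made. Alternatives added after seeing the data were the deposited totals, whole myofibers only, the excluded cells on both kinds of total, 2 single cells left out, and 3 ranges of count total.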

Additional observations from a re-analysis of the deposited data

How the results depend on the processing

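With 1 mouse there was no residual spread between animals, so these are values without a test. The 2 members higher in fast 2A, Ckmt2 and Ampd3, were past 1.5-fold under 24 of 25 alternatives; in the excluded cells with totals without mt- genes they were 0.42 and 0.55, and the count was 0. Ampd1 was past 1.5-fold under 22 of 25, the exceptions being plate 706 and the excluded cells on either total, and Ckm under 10 of 25. Of the 2 lower members, 1 was left under TMM factors, total without mt- genes, mean and median over cells, thinning, the mitochondrial share without mt-Rnr1 and mt-Rnr2, plates 707 and 709, the lowest and middle ranges of count totals, and without the 2 cells with most Ckb and Ampd3. With each lane left out in turn the count was 1 to 2. It was 0 in plate 706, in the excluded cells on either total and at 2-fold. In the excluded cells Ckm was reversed on the full totals, at 0.26. Without mt- totals it was at 0.023, with little difference between the classes. Ak1, within 1.5-fold, was at 0.31 and 0.07 on these totals, and the cause was not tested. The lower list genes numbered 2 by the mean over cells (Gamt and Ak5), 3 by the median, 6 with a minimum of 100 counts and 9 with none. The 6 members higher in the kept cells stayed past 1.5-fold against excluded cells with more than 5000 genes and under TMM factors. Their log2 ratios were 1.52 to 1.88 and 1.01 to 1.37 in these 2 settings. Against excluded cells under 20% mitochondrial counts none of the 6 was past 1.5-fold, and 1 other (Ampd3) was. With totals without mt- genes 2 of the 6 (Ckm and Ampd1) were, and 1 (Ampd3) was lower. TMM moved the median log2 ratio of all genes from -0.09 to 0.02, and the share of calls that were higher from 25.7% to 48.9%; between kept and excluded cells that share was 92.4%, 78.6% with TMM and 32.6% without mt- totals. No paired analysis was possible because the samples form 1 group; ratios within plates are in the report. Few counts limited Ckb and Ampd3.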

Other observations

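The fast 2A cell with the highest Ampd3 level, 231 CPM from 17 counts in 73539, was not unusual in the other members, with 3304 CPM of Ckm, 367 CPM of Ckmt2 and 367 CPM of Ampd1. It had 27.2 CPM each of the blood and immune and the fibroadipogenic markers, where the fast 2A medians were 10.9 and 21.8 CPM, and no counts of the endothelial, smooth muscle, Schwann cell and axon or satellite cell markers. The fast 2A cell with the most Ampd3 counts, 55 in 578234, had a Myh2 share of 92.4% and 10117 CPM of the 5 slow-fibre markers, against a fast 2A median of 2207 CPM. Against only those excluded cells that had under 20% mitochondrial counts, the kept cells had a log2 ratio of 1.59 for Ampd3 and of 0.06 to 0.56 for Ckm, Ckmt2, Ak1, Ampd1, Slc6a8 and Slc25a4. The Ampd3 ratio was not stable: it was 0.31 against all excluded cells and -0.03 against those with more than 5000 genes. All excluded cells together held 163 counts of Ampd3.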
